A study of Mus musculus with 8 samples.

Results

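The comparison set untreated disseminated cancer cells against the TUBO line, 2 libraries against 2, over every gene row of the deposited table. The disseminated cells, called DCC control after their label, were isolated from marrow of mice whose breast cancer metastasised spontaneously, carry the treatment label control, and were cultured. TUBO is a mouse breast cancer cell line, known as background to have been cloned from a mammary carcinoma of a mouse carrying the activated rat Erbb2 oncogene neuT. TUBO libraries carry the treatment label control as well, and all 4 libraries the genotype label WT, although the series' treatment text speaks of a transgenic breast cancer model and of interferon-gamma, TNF-alpha and anti-HER2 antibodies for the study as a whole. Strain, age, passage, any transgene's promoter and the number of mice behind the DCC cultures are not stated in the labels. These call the libraries biological replicates 1 and 2, and nothing says that they came from separate cultures. P-values thus measure the spread between replicate libraries, shared over all 4 groups of the series, and that spread may be technical. Of 8 libraries in the series 4 enter the comparison, and of 23478 gene rows 17069 had enough counts to be tested. The series asks how disseminated cells differ in expression from primary and metastatic tumours, and TUBO, 1 cultured line, stands for the tumour side here.

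As background, epithelial cancer cells hold together through E-cadherin, claudins and desmosomes and carry keratin filaments. Cells that take on a mesenchymal programme repress these genes, through zinc finger and helix-loop-helix factors such as Zeb1, Snai2 and Twist1, and make vimentin and collagen matrix instead. Bone marrow also holds stromal cells, osteoblasts and macrophages, whose marker genes overlap with that programme. Markers of all these cells were therefore read beside one another.

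Most listed epithelial genes were lower in DCC control, and most listed mesenchymal and collagen genes were higher, as set out below. Members of all lists were chosen with earlier results of these data known. Shares of a list are thus descriptions and no test. Of the 17069 genes tested, 42.0% were called in edgeR's quasi-likelihood test at a Benjamini-Hochberg adjusted p under 0.05. Higher in DCC control were 3776 genes (22.1%) and lower 3396 (19.9%). The libraries of the groups did not overlap in 3775 of the higher and 3396 of the lower genes. A lack of overlap thus adds little to a call. On edgeR's log2 scale the change was at least 2-fold in 2892 of the higher and 2309 of the lower genes, and at least 16-fold in 1608 and 573. These counts include genes without a count in 1 group, whose fold is known only as a bound that can be far smaller. The median log2 fold change over all genes tested was 0.37, where positive values mean higher in DCC control. No count fell on 961 of the higher genes in TUBO, and on 33 of the lower genes in DCC control. Among the higher genes 693 stayed under 5 CPM (counts per 1000000 reads on genes) on average in DCC control, so part of the higher count rests on low levels.

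**Figure D1:**
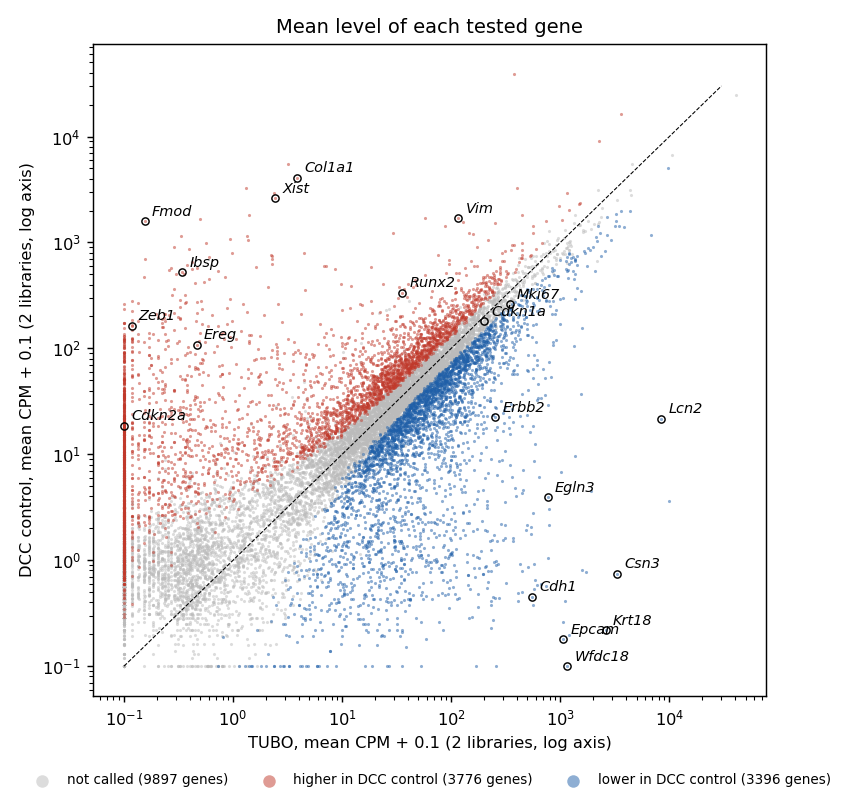
Mean CPM of each tested gene in TUBO (horizontal, log axis) and in DCC control (vertical, log axis), each mean over 2 libraries with 0.1 added. The 3776 genes called higher in DCC control are red, the 3396 called lower blue, and genes without a count in TUBO stand in the column at the left edge, where Cdkn2a lies.

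The libraries were not alike in background. The depth on genes was 15432210 and 24892318 reads for DCC control replicates 1 and 2, and 29318066 and 27122242 in TUBO. Reads outside annotated genes made up 49.2% and 31.0% of those counted in DCC control, against 19.2% and 18.3% in TUBO. Among 1450 receptor genes of smell and pheromone sensing, known mainly from sensory neurons, at least 1 read fell on 47.7% and 11.9% in DCC control and on 0.966% in each TUBO library. The 95th percentile of these genes stood at 0.913 and 0.237 CPM in DCC control replicates 1 and 2, so levels under about 1 CPM in replicate 1 lie within this background. DCC control replicate 1 and early lesion replicate 2, a library outside the comparison that shares the fit, stand apart in this way and are called the high-background pair. List counts without the pair are given where they differ by over 1.5 times. Without it, 2868 genes were higher and 2287 lower. Across tested genes the Spearman correlation of log2 CPM was 0.970 within DCC control, 0.979 within TUBO, and 0.760 to 0.776 between the groups. These are correlations across genes, which are not independent replicates.

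The epithelial genes Epcam, Krt18, Krt8 and Cdh1 were close to absent from DCC control, although the labels call these cells breast cancer. Epcam, a cell adhesion protein by which carcinoma cells are often recognised (chromosome 17, 87635979 to 87651129 in GRCm38), had 0 and 0.158 CPM in DCC control and 1034 and 1089 CPM in TUBO. Keratin 18 (Krt18, chromosome 15, 102028180 to 102032027) had 0 and 0.238 CPM against 2509 and 2693 CPM, and its filament partner keratin 8 (Krt8) 0.304 and 0.317 against 1031 and 1180.4. In all 3 genes the DCC control libraries stayed under 1 CPM, near the background on receptor genes, and the groups did not overlap. The edgeR log2 fold changes were -13.37 ± 0.41, adjusted p = 2.83e-08 for Epcam, -14.11 ± 0.51, adjusted p = 3.35e-08 for Krt18 and -11.77 ± 0.29, adjusted p = 1.02e-08 for Krt8. Cdh1, which encodes E-cadherin (chromosome 8, 106603351 to 106670246), had 0.426 and 0.277 CPM in DCC control and 555 and 548 CPM in TUBO (log2 fold change -10.65 ± 0.29, adjusted p = 1.39e-08). In bulk RNA such a difference cannot tell fewer cells of a type from less RNA per cell. The group is called DCC control below by its label only.

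All 24 genes of the list of epithelial junctions and adhesion were called lower in DCC control, beside 19.9% of all genes. The 24 genes all averaged at least 10 CPM in TUBO, while the 19.9% covers tested genes of any level. Their median log2 fold change was -6.58, against 0.37 over all genes tested. The smallest change was that of Pkp2, a desmosomal plakophilin also found in mesenchymal cells, with 31.8 and 32.3 CPM in DCC control and 161 and 142 CPM in TUBO (-2.24 ± 0.16). At the other end, next to Epcam and Cdh1, stood the claudin gene Cldn3 with 0.365 and 0.435 against 409.9 and 481 CPM (-10.08 ± 0.25, adjusted p = 1.42e-08 in edgeR) and the desmosomal cadherin Dsg2 with 1.52 and 0.119 against 446 and 415 CPM (-9.24 ± 0.72, adjusted p = 0.000103). Of these 24 genes 12 in DCC control replicate 1 and 19 in replicate 2 lay above the 95th percentile of the receptor genes. Low counts of epithelial genes in DCC control are thus partly at the level of that background.

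Promoters of the junction genes are shown because the mesenchymal factors described below, Zeb1 and the Snail family, are known to bind the E-box CAGGTG. RefSeq promoters (GRCm38.p6) were at hand for 13 of the 24 genes, and the 250 bases before the start were searched for CAGGTG or CACCTG, the same site on the other strand. The motif was present in 8 of the 13 (61.5%), namely in Cldn4, Cldn7, Crb3, Epcam, F11r, Lsr, Ocln and Tjp3, beside 19.4% of 27025 genes with a promoter. Of 9 matched epithelial transcription and splicing factors 4 held it (Elf3, Elf5, Foxa1 and Grhl3). A match is a description of letters and no evidence of binding. The windows of Epcam (chr17:87635729-87635978, plus strand), Lsr (chr7:30973470-30973719, minus strand), which encodes a protein of tricellular junctions, and Cldn4 (chr5:134946935-134947184, minus strand) follow 5′ to 3′, with the E-box in capitals.
Epcam: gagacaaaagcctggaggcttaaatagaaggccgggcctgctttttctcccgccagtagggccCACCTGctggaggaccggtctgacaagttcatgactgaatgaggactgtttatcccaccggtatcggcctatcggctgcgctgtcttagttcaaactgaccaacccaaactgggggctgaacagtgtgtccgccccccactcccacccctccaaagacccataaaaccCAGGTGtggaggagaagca
Lsr: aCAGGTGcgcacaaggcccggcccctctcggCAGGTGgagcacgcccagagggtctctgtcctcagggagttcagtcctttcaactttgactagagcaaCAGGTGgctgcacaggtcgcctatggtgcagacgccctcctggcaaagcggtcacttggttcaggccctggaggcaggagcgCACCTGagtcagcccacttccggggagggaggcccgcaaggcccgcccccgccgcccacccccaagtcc
Cldn4: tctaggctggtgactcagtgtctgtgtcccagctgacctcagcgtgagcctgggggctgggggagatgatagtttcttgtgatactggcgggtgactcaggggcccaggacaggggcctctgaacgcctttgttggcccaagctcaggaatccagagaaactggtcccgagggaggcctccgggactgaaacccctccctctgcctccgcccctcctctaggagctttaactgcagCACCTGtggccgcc
In Epcam the sites began 187 and 19 bases before the start, and in Cldn4 the only site 14 bases before it. The Lsr window held 4 sites. Lsr had 0.426 and 0.435 CPM in DCC control and 148 and 151 CPM in TUBO, and Cldn4 0 and 0.238 CPM against 82.1 and 85.5 CPM. All 24 listed genes were lower, with the motif or without it, and the windows shown were picked from genes that hold it. These levels therefore say nothing about the motif, and a link between motif and level was not tested.

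The regulators and the machinery of epithelial cells followed the same direction. Of 18 epithelial transcription and splicing factors 14 were lower, 1 was higher and 3 were not called, with a median of -5.26. Tfap2c, an AP-2 factor of luminal mammary cells, had 0.852 and 0.0792 CPM in DCC control and 753 and 723 CPM in TUBO (-10.84 ± 0.71, adjusted p = 3.17e-05 in edgeR). Esrp1, which directs epithelial splice forms, had 1.58 and 0 against 210.1 and 209.7 CPM (-8.29 ± 0.96, adjusted p = 0.0014), and the ETS factor Ehf 2.19 and 1.98 against 284 and 293 CPM (-7.12 ± 0.21, adjusted p = 1.42e-08). The 1 higher gene was Trp63, the p63 factor of basal epithelium, with 63.5 and 79.9 CPM in DCC control and 6.93 and 2.1 CPM in TUBO (3.98 ± 0.93, adjusted p = 0.0143). That call was lost in each fit that omitted 1 of the 4 libraries, with edgeR adjusted p between 0.0552 without DCC control replicate 1 and 0.136 without DCC control replicate 2. Of 14 genes of epithelial membrane traffic and surface proteases 13 were lower and 1 was not called (median -7.30). Among them the protease inhibitor Spint1 had 1.22 and 0.396 CPM in DCC control and 237 and 279 CPM in TUBO, and the vesicle protein Mal2 0.974 and 0 CPM against 144 and 143 CPM. Of 10 keratins tested 5 were lower and 5 were not called (median -4.06, or -2.26 with genes absent from a group taken at their bound). Keratin 7 (Krt7) had 0.791 and 0 against 388 and 425 CPM. The basal keratins Krt5 and Krt14 were at most 0.791 CPM in all 4 libraries.

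Transcripts of the ERBB system, known as the source of the oncogenic signal in neuT tumours, were mostly lower in DCC control. Erbb2 itself (chromosome 11, 98412470 to 98437716) had 21.2 and 23.3 CPM in DCC control and 258 and 245 CPM in TUBO. Both DCC control libraries lay far below both TUBO libraries, at -3.50 ± 0.15, adjusted p = 6.68e-08 on edgeR's log2 scale. Reads of a rat transgene that align to the mouse gene would be counted with it, and this was not tested. The partner receptor Erbb3 had 0.608 and 0.673 against 200.003 and 193 CPM (-8.24 ± 0.21, adjusted p = 1.02e-08), and the adaptor Grb7, a neighbour of Erbb2 on chromosome 11, 0.365 and 0 against 50.4 and 45.3 CPM (-8.29 ± 0.69, adjusted p = 8.96e-05). Over the list of receptors and ligands 9 of 16 were lower, 3 higher and 4 not called, with a median of -2.20. Tgfa, a ligand of the EGF receptor, was lower, with 0.791 and 0.317 CPM in DCC control and 101 and 93.9 CPM in TUBO (-7.55 ± 0.36, adjusted p = 1.15e-07). Ereg, which encodes the ligand epiregulin, went the other way, with 112 and 104 CPM in DCC control and 0 and 0.724 CPM in TUBO (8.26 ± 0.93, adjusted p = 0.000602 in edgeR). The 3 higher members numbered 1 without TUBO replicate 2.

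Genes of mammary differentiation marked TUBO. Of 15 hormone response and milk genes 8 were lower in DCC control, 2 higher and 5 not called (median -3.86), and the 2 higher numbered 1 with DCC control replicate 1, either TUBO library or the high-background pair left out. The casein gene Csn3 had 1.22 and 0.0792 CPM in DCC control and 3115 and 3458 CPM in TUBO (-12.52 ± 0.75, adjusted p = 4.34e-06 in edgeR), and the receptor tyrosine kinase Kit 0.73 and 0.0396 against 91.6 and 93.2 CPM (-8.14 ± 0.57, adjusted p = 2.16e-05). The lipocalin Lcn2 had 24.6 and 18.5 against 8122 and 8670 CPM (-8.61 ± 1.19, adjusted p = 0.00152), and Lcn2 was not called when DCC control replicate 2 was omitted (adjusted p = 0.0692). The oestrogen receptor gene Esr1 stood on the other side, with 11.5 and 9.11 CPM in DCC control and no count in TUBO (at least 94.6-fold higher, adjusted p = 8.25e-05). Among the 10 largest decreases over all genes, Wfdc18, Cytl1 and Rbp7 had no count in DCC control. Wfdc18, which encodes a small secreted protein with a whey acidic protein domain, had 1111 and 1211 CPM in TUBO (at least 7707-fold lower, adjusted p = 1.53e-08). Cytl1, a secreted cytokine-like protein, had 239 and 279 CPM (at least 1721-fold lower), and Rbp7, a retinoid-binding protein, 154 and 186 CPM (at least 1129.9-fold lower). The water channel Aqp5 had 0 and 0.317 CPM in DCC control and 983 and 1131 CPM in TUBO (-12.41 ± 0.47), and Sox10, a factor of neural crest and of mammary epithelial cells, 0 and 0.198 CPM against 1164 and 1233 CPM (-13.24 ± 0.51).

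**Figure D2:**
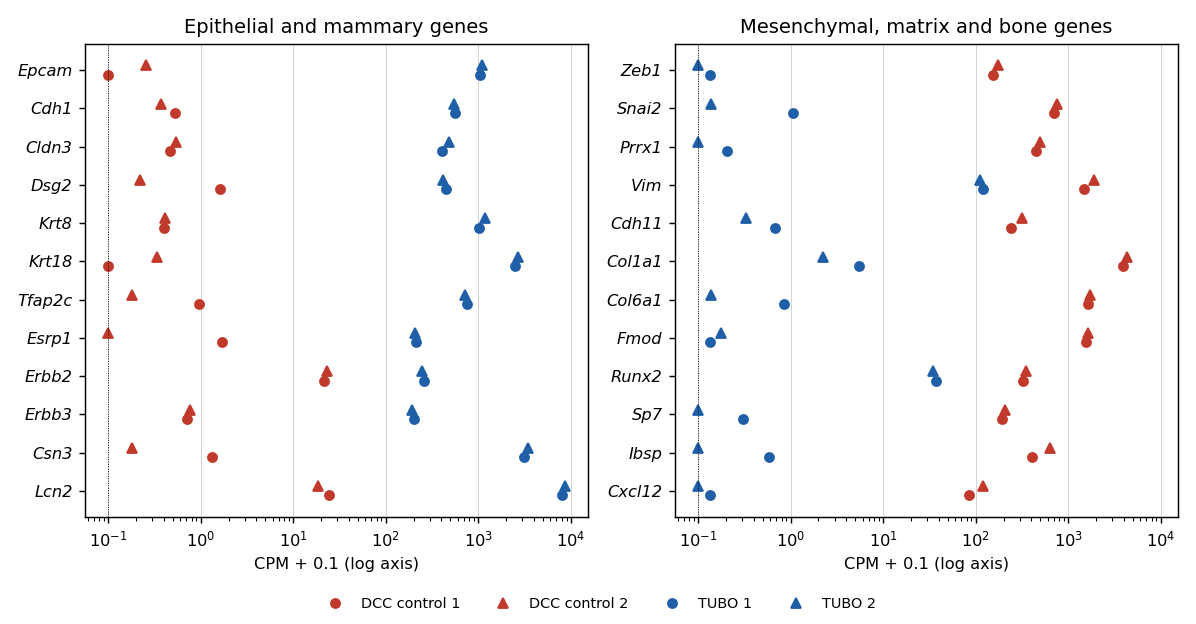
CPM plus 0.1 (horizontal, log axis) of 12 epithelial and mammary genes and 12 mesenchymal, matrix and bone genes, 1 point per library, DCC control in red and TUBO in blue, replicate 1 as circles and replicate 2 as triangles. In every gene shown both DCC control libraries lie on one side of both TUBO libraries, which the rule for naming genes required of all but the panel. Erbb2, Lcn2, Vim and Runx2 differ while present in both groups.

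Factors and structural genes of mesenchymal cells were higher in DCC control. Of 12 transcription factors of epithelial-mesenchymal transition 10 were higher, 1 lower and 1 not called, beside 22.1% of all genes, with a median of 5.06. Zeb1, a repressor of epithelial genes, had 154 and 172 CPM in DCC control and 0.0345 and 0 CPM in TUBO (a ratio of 9118 with a 95% counting interval of 1636 to 360200, adjusted p = 2.95e-08). Snai2, the repressor Slug, had 705 and 748 against 0.965 and 0.0381 CPM (10.44 ± 0.80, adjusted p = 9.54e-05 in edgeR). The limb and stromal homeobox factor Prrx1 had 449 and 499 against 0.103 and 0 CPM (a ratio of 8824 with a 95% counting interval of 3019 to 42790, adjusted p = 1.53e-08). In these 3 genes TUBO was at or near 0 and replicates within DCC control were close. Twist1 differed far less, with 128 and 120.3 CPM in DCC control and 64.9 and 73.4 CPM in TUBO (0.84 ± 0.22), a gene named after its values were seen. The 1 lower factor was Snai3, without a count in DCC control and with 6.72 and 4.73 CPM in TUBO (at least 38-fold lower, adjusted p = 0.000484).

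Of 13 genes of mesenchymal adhesion and cytoskeleton 10 were higher, 1 lower and 2 not called (median 4.83). Vim, the filament protein vimentin, had 1464 and 1902 CPM in DCC control and 120.0 and 113 CPM in TUBO (3.86 ± 0.25, adjusted p = 1.11e-06 in edgeR). The cadherins of mesenchymal cells showed a wider gap: Cdh2 had 128 and 143 against 0.276 and 0 CPM (9.83 ± 0.49, adjusted p = 9.11e-07) and Cdh11 240.5 and 317 against 0.586 and 0.229 CPM (9.38 ± 0.54, adjusted p = 6.77e-06). Itga5, the fibronectin receptor chain, had 155 and 163 against 0.138 and 0.114 CPM (10.24 ± 0.71, adjusted p = 4.21e-05). Its ligand fibronectin (Fn1), named after its values were seen, had 38180 and 40332 CPM in DCC control and 417 and 332 CPM in TUBO (6.71 ± 0.48, adjusted p = 2.02e-06). The integrin chain Itgb3 was the 1 lower member (2.74 and 1.43 against 81 and 66.6 CPM), and it was not called when DCC control replicate 2 was omitted (adjusted p = 0.147) or TUBO replicate 1 was (0.0577).

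Genes of fibrillar collagens were mostly higher in DCC control. Of 16 collagen chains of fibrils and their associates 13 were higher, 1 lower and 2 not called, with a median of 10.50 (9.69 with genes absent from a group taken at their bound). Col1a1, the main chain of type I collagen (chromosome 11, 94936224 to 94953042), had 3898 and 4272 CPM in DCC control and 5.41 and 2.13 CPM in TUBO (10.07 ± 0.51, adjusted p = 1.13e-06 in edgeR). Its partner Col1a2 had 255 and 283 against 0.069 and 0 CPM (a ratio of 7505 with a 95% counting interval of 2077 to 61980, adjusted p = 0.000286), and the type VI chain Col6a1 1633 and 1706 against 0.759 and 0.0381 CPM (11.97 ± 1.22, adjusted p = 0.000369). TUBO libraries thus held at most a few CPM of each. The 1 lower member of this list was Col18a1, a basement membrane collagen, with 27.9 and 18.4 CPM in DCC control and 169 and 179.9 CPM in TUBO (-2.92 ± 0.57, adjusted p = 0.0072), not called when DCC control replicate 2 was omitted (adjusted p = 0.13).

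Enzymes that process collagen followed, with 15 of 20 higher, 2 lower and 3 not called (median 3.05), and 1 lower with any 1 of the 4 libraries or the high-background pair left out. Lox, the lysyl oxidase that crosslinks fibrils, had 763 and 969 CPM in DCC control and 0.552 and 0.0381 CPM in TUBO (11.45 ± 0.98, adjusted p = 0.000158 in edgeR). Fkbp10, a collagen chaperone, had 175 and 201 against 0.241 and 0 CPM (10.48 ± 0.56, adjusted p = 2.88e-06), and Loxl4 35.5 and 33.5 CPM against no count (at least 317-fold higher, adjusted p = 0.000108). Of 26 proteoglycans and matricellular proteins 24 were higher, none lower and 2 not called, with a median of 9.66 (8.18 with bounds). Fibromodulin (Fmod), which binds collagen fibrils, had 1542 and 1639.8 CPM in DCC control and 0.0345 and 0.0762 CPM in TUBO (a ratio of 29480 with a 95% counting interval of 10090 to 143000, adjusted p = 7.08e-05). Fbn1, which encodes the microfibril protein fibrillin, had 144 and 129 CPM against no count (at least 1253-fold higher, adjusted p = 0.000662). Fbln1, a fibulin of elastic fibres, had 83.1 and 73.6 CPM against no count (at least 719.7-fold higher, adjusted p = 0.00104).

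Matrix proteases and their inhibitors were higher in 18 of 21 genes, lower in 1 and not called in 2 (median 3.83, 3.32 with bounds). The collagenase Mmp13, known from bone remodelling, had 919 and 1223 CPM in DCC control and 1.14 and 0.534 CPM in TUBO (10.30 ± 0.86, adjusted p = 0.000142 in edgeR). Mmp3 had 13 and 19.5 CPM against no count (at least 149-fold higher, adjusted p = 1.85e-05). The membrane protease Mmp15 was the 1 lower gene, with 1.22 and 0.515 against 247 and 250.4 CPM (-8.25 ± 0.57, adjusted p = 3.64e-05). Basement membrane genes divided: of 20 members 8 were higher, 6 lower and 6 not called, with a median of 0.21. Hspg2, the heparan sulfate proteoglycan perlecan, had 1149 and 1170.2 CPM in DCC control and 0.31 and 0.152 CPM in TUBO (12.24 ± 0.73, adjusted p = 1.67e-05). The integrin chains of hemidesmosomes, named after their values were seen, were lower in DCC control: Itga6 had 4.2 and 4.28 against 487 and 411 CPM, and Itgb4 2.01 and 3.33 against 558 and 554 CPM. The 8 higher basement membrane genes numbered 5 without DCC control replicate 1, 5 without TUBO replicate 1 and 4 without TUBO replicate 2.

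Genes of bone formation were higher as well. In the list of osteoblast transcription factors and mineralisation 13 of 20 were higher, 1 lower and 6 not called (median 4.41, 4.13 with bounds). Runx2, the master factor of osteoblasts (chromosome 17, 44495987 to 44814797), had 325 and 346 CPM in DCC control and 36.7 and 34.3 CPM in TUBO (3.24 ± 0.19, adjusted p = 5.48e-07 in edgeR). Sp7 (osterix), which acts after Runx2, had 190.2 and 208 against 0.207 and 0 CPM (10.78 ± 1.32, adjusted p = 0.000868), and Ibsp, bone sialoprotein, 410.3 and 632 against 0.483 and 0 CPM (10.99 ± 0.82, adjusted p = 8.14e-05). Runx2 was thus present in both groups, while Sp7 and Ibsp were close to absent from TUBO. Alpl, the phosphatase of mineralising cells, had 1381 and 1475 against 90 and 84.3 CPM (4.03 ± 0.31, adjusted p = 9.73e-06). The parathyroid hormone receptor gene Pth1r had 248 and 297 CPM in DCC control and 0 and 0.534 CPM in TUBO (10.03 ± 0.98, adjusted p = 0.000296). The 1 lower gene was Dlx3 (4.69 and 5.34 against 12 and 12.1 CPM, -1.26 ± 0.45, adjusted p = 0.044). Dlx3 was not called in any fit that omitted 1 of the 4 libraries (adjusted p between 0.133 and 0.173), with RLE factors (0.0515), with upper quartile factors (0.0615), with no filter (0.0523) and without the high-background pair (0.152). Of 10 osteoblast markers 7 were higher and 3 were not called. The osteocalcin gene Bglap, shown for its promoter, had 12.8 and 5.7 CPM against no count (at least 84.8-fold higher, adjusted p = 0.000936).

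The Runx core TGTGGT, or ACCACA on the other strand, is the known site of Runx2. It was found in the 250 bases before the start in 6 of 15 matched genes of the osteoblast list (40.0%: Bglap, Dmp1, Enpp1, Mepe, Runx2 and Spp1), beside 15.9% of 27025 genes. The RefSeq window of Bglap (chr3:88384467-88384716, minus strand, GRCm38.p6), a textbook target of Runx2, is shown 5′ to 3′ with the core in capitals.
Bglap: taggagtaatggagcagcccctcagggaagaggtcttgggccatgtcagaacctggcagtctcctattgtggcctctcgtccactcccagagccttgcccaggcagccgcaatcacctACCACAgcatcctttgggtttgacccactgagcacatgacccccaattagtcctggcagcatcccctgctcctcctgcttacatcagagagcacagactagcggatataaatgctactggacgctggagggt
The only site there began 132 bases before the start.

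Marrow niche and secreted signalling genes split by member. Of 17 niche factors 12 were higher, 2 lower and 3 not called (median 5.90, 3.43 with bounds), and the 2 lower numbered 1 with DCC control replicate 1, either TUBO library or the high-background pair left out. Cxcl12, the chemokine that holds blood stem cells and Cxcr4-bearing tumour cells in marrow, had 85.1 and 119 CPM in DCC control and 0.0345 and 0 CPM in TUBO (a ratio of 5824 with a 95% counting interval of 1045 to 230100, adjusted p = 3.66e-08). Angpt1, the Tie2 ligand of niche cells, had 101 and 137 CPM against no count (at least 1093-fold higher, adjusted p = 1.13e-07). Nes (nestin), often used as a niche marker, was lower, with 15.8 and 20.7 against 562 and 552 CPM (-4.93 ± 0.21, adjusted p = 5.57e-08 in edgeR). In the TGF-beta and BMP list 15 of 28 were higher, 4 lower and 9 not called (median 1.91). The ligands Tgfb1 and Tgfb3 differed in opposite ways: Tgfb1 had 90.7 and 104 CPM in DCC control and 0.276 and 0 CPM in TUBO (9.35 ± 0.80, adjusted p = 0.000161), and Tgfb3 17.4 and 14.7 against 117 and 123 CPM (-2.90 ± 0.23, adjusted p = 3.85e-06). Bmp2, a bone-inducing ligand, had 38.9 and 35.9 against 0 and 0.0381 CPM (a ratio of 2048 with a 95% counting interval of 367 to 80950, adjusted p = 4.77e-07), and its antagonist Grem1 337 and 299 against 0.31 and 0.0381 CPM (10.74 ± 0.73, adjusted p = 4.23e-05).

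Of 29 Wnt pathway genes 12 were higher, 9 lower and 8 not called (median 1.67, 1.34 with bounds). Rspo3, a secreted amplifier of Wnt signals, had 102 and 98.9 CPM in DCC control and no count in TUBO (at least 924-fold higher, adjusted p = 7.87e-06). Axin2, a feedback target of beta-catenin, had 10.6 and 14 CPM against no count (at least 113-fold higher, adjusted p = 0.000157). Among secreted antagonists Wif1 was higher (89.3 and 84 against 0.138 and 0.381 CPM, 8.38 ± 0.55, adjusted p = 4.19e-06) and Sfrp1 lower (0.548 and 0.317 against 603 and 539.9 CPM, -10.42 ± 0.29, adjusted p = 1.39e-08 in edgeR). Of 23 genes of FGF, PDGF and VEGF signalling 12 were higher, 5 lower and 6 not called (median 4.05, 2.91 with bounds), and the 5 lower numbered 3 without DCC control replicate 1 and 3 without the high-background pair. Fgf7, a growth factor that stromal cells send to epithelium, had 1068 and 1037 CPM in DCC control and 1.72 and 0.839 CPM in TUBO (9.66 ± 0.40, adjusted p = 1.18e-07). Pdgfrb, the PDGF receptor of stromal cells, had 131 and 148 against 0.138 and 0 CPM (10.82 ± 1.13, adjusted p = 0.000422). The VEGF receptor gene Flt1 was lower, with 1.7 and 0.752 against 71.9 and 63.2 CPM (-5.84 ± 0.37, adjusted p = 9.12e-07).

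In the insulin-like growth factor axis 4 of 11 genes were higher, 3 lower and 4 not called. Its binding proteins took both directions. Igfbp4 had 428 and 426 CPM in DCC control and 0.241 and 0.648 CPM in TUBO (9.92 ± 0.36, adjusted p = 3.44e-08 in edgeR), and Igfbp5 1.58 and 0.435 against 164 and 154 CPM (-7.42 ± 0.52, adjusted p = 2.2e-05). Igf2 was not called (3.35 and 1.35 against 0.31 and 0 CPM, 3.86 ± 2.23, adjusted p = 0.185). Of 16 imprinted growth genes 5 were higher, 1 lower and 10 not called, and the called share of 37.5% lies below the 42.0% over all genes. The neighbours Peg10 and Sgce were both higher: Peg10 had 1737 and 1909.7 CPM in DCC control and 1.62 and 0.991 CPM in TUBO (10.43 ± 0.79, adjusted p = 9.17e-05), and Sgce 105 and 125 CPM against no count (at least 1054-fold higher, adjusted p = 4.77e-08). Peg3 was the 1 lower gene, with 25.4 and 42.5 against 737 and 591 CPM (-4.28 ± 0.38, adjusted p = 5.63e-05).

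**Figure D3:**
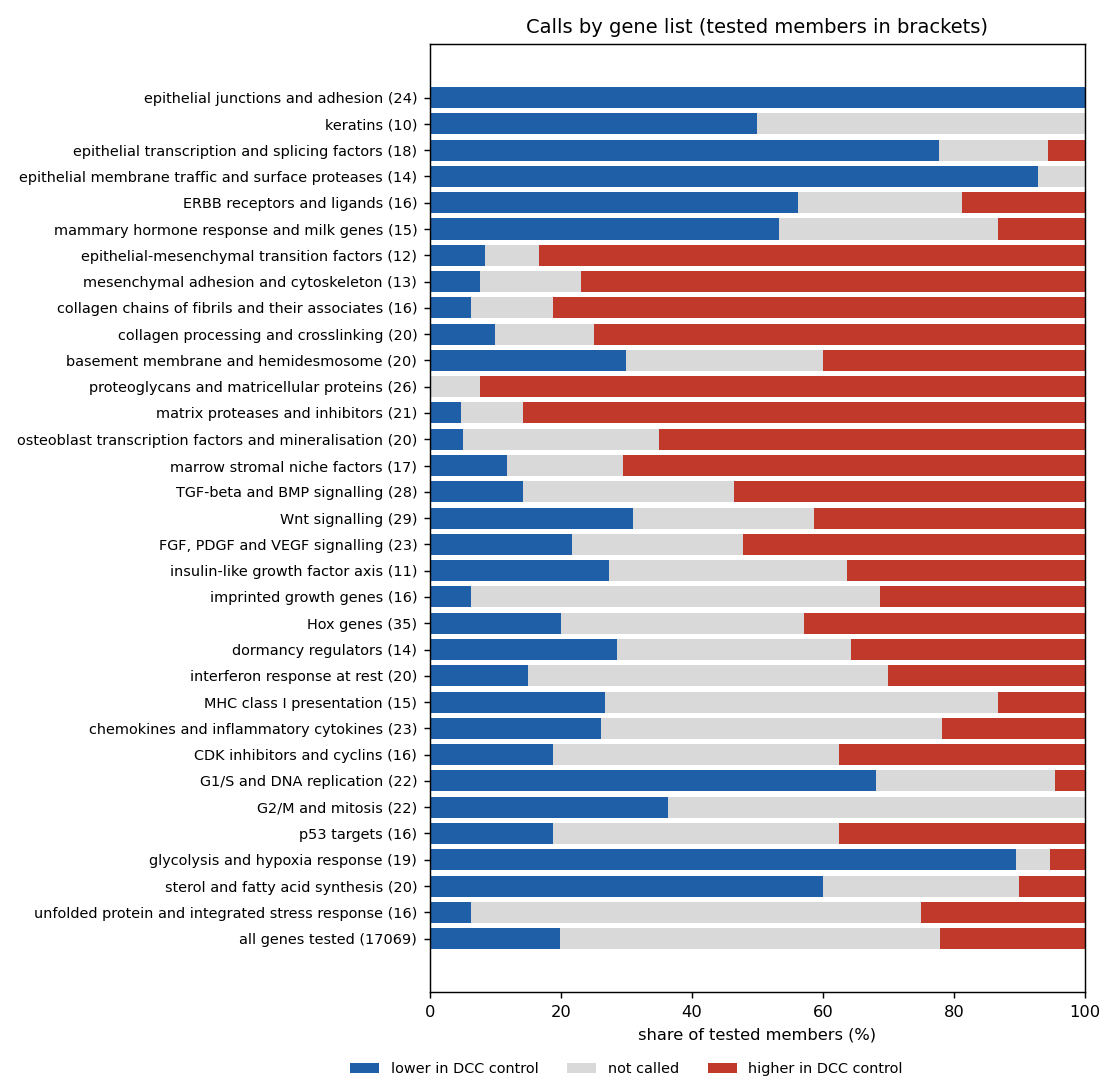
Share of the tested members of each gene list (horizontal, in percent) called lower (blue), not called (grey) and called higher (red) in DCC control, with the number tested in brackets and all 17069 genes in the last bar. The epithelial lists at the top are mostly blue apart from keratins (5 of 10 lower). The matrix and bone lists below them are mostly red apart from basement membrane (8 of 20 higher, 6 lower), and glycolysis (17 of 19 lower) is mostly blue.

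Hox genes, which record a cell's place along the body axis, gave different counts by cluster. Of 35 tested 15 were higher in DCC control, 7 lower and 13 not called (median 4.16, 1.97 with bounds). In the Hoxc cluster 8 of 9 were higher and none lower, in Hoxd 3 of 8 higher, in Hoxb 3 of 7 lower and none higher, and in Hoxa 4 of 11 higher and 4 lower. By paralogue group, a split made after the values were seen, 9 of 14 genes numbered 9 to 13 were higher and none lower, while 7 of 14 numbered 1 to 5 were lower and 3 higher. Hoxc10, a gene of the lumbar and hindlimb region, had 59 and 55.8 CPM in DCC control and no count in TUBO (at least 527-fold higher, adjusted p = 0.000683). Hoxa11, known from limb skeleton, had 17.5 and 16.2 CPM against no count (at least 155-fold higher, adjusted p = 0.000738), and Hoxd8 36.9 and 38 CPM against no count (at least 344-fold higher, adjusted p = 6.66e-07). Hoxb2 ran the other way, with 0.608 and 0 CPM in DCC control and 19.9 and 32.1 CPM in TUBO (-6.62 ± 1.15, adjusted p = 0.00331 in edgeR). Summed over members, the Hoxc cluster stood at 213.5 and 210.9 CPM in DCC control and 10.3 and 10.6 CPM in TUBO.

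**Figure D4:**
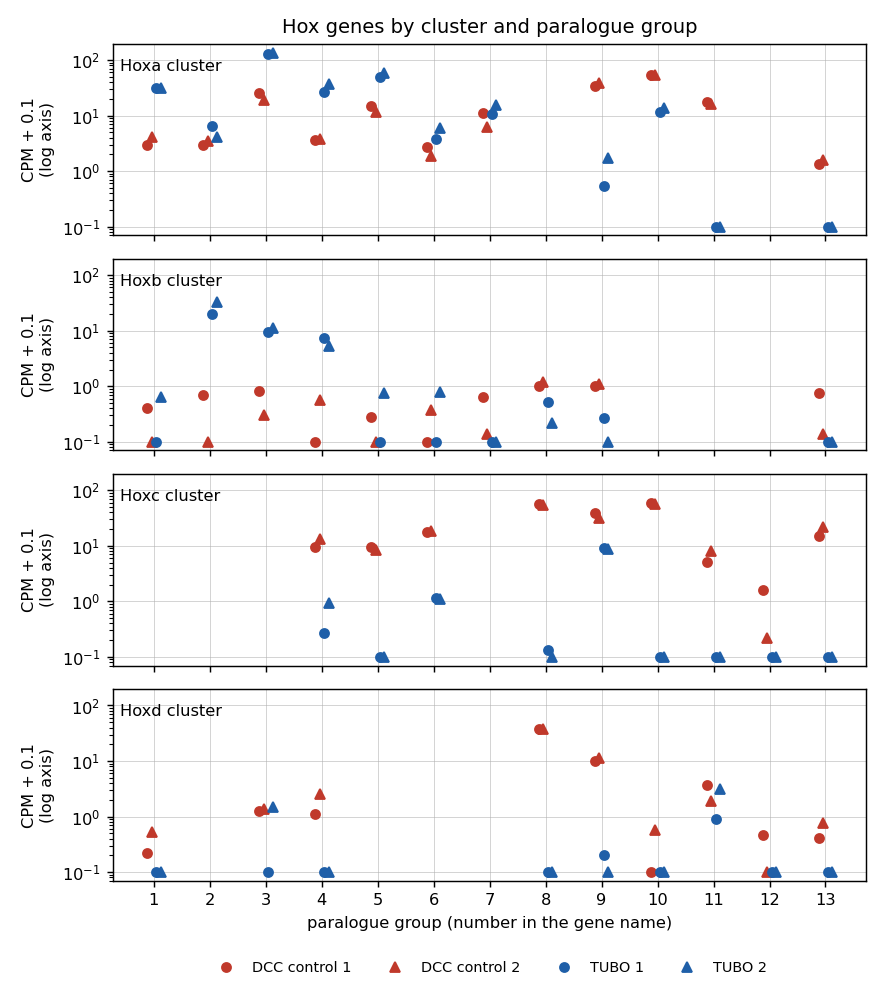
CPM plus 0.1 (vertical, log axis) of each Hox gene against its paralogue group (horizontal, the number in its name), 1 panel per cluster and 1 point per library, DCC control in red and TUBO in blue. Red points lie above blue ones along most of Hoxc and at the high numbers of Hoxa, and blue ones lie above red at the low numbers of Hoxa and Hoxb.

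Markers of other cells were read for each group. All 13 tested markers of fibroblasts and mesenchymal stromal cells were higher in DCC control, with summed levels of 7546 and 8713 CPM against 16.1 and 10.3 CPM in TUBO. Pdgfrb and Col1a1, given above, and lumican (Lum, 23.4 and 30.2 CPM against no count, at least 246-fold higher, adjusted p = 0.000227) are among them. Macrophage and monocyte markers were higher in 13 of 16 and lower in 1, summing to 172 and 171 CPM in DCC control and 78.7 and 112 CPM in TUBO, where C1qa, Msr1, Fcgr1, Itgam, Tyrobp and Mpeg1 were at 0. The higher macrophage markers numbered 13 without the high-background pair and 9 to 12 with 1 of the 4 libraries left out, fewest without DCC control replicate 2. Mpeg1, a pore protein of macrophages, had 20.6 and 22.7 CPM in DCC control and no count in TUBO (at least 199-fold higher, adjusted p = 2.95e-05), and lysozyme (Lyz2) 18.7 and 20.5 against 0.0345 and 0 CPM (a ratio of 1094 with a 95% counting interval of 196 to 43270, adjusted p = 6.29e-05). Cd14, which made up most of the TUBO sum, was lower, with 12.3 and 11.3 CPM against 73.9 and 107 CPM (-2.94 ± 0.25, adjusted p = 6.73e-06 in edgeR). The pan-leukocyte gene Ptprc (CD45) had 7.24 and 2.69 CPM in DCC control and 0.0345 and 0 CPM in TUBO (a ratio of 248 with a 95% counting interval of 43.9 to 9836, adjusted p = 0.0154). Ptprc was not called in any fit that omitted 1 of the 4 libraries (adjusted p between 0.0709 and 0.136). Most macrophage and fibroblast markers were thus higher in the same group as most matrix, bone and niche genes. Some fibroblast markers, such as Col1a1, Lum and Pdgfrb, are also members of the collagen, proteoglycan and PDGF lists. A comparison of 2 groups cannot show that sets of genes vary together. The part of these cells in those results was not tested.

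Counts of the other lineages are read beside the 22.1% of all genes called higher and the 19.9% called lower. Osteoclast markers were higher in 2 of 7 and chondrocyte markers higher in 4 of 10 and lower in 2. The collagen chain Col9a1, a cartilage gene, was among the lower ones, with 1.52 and 0.119 CPM in DCC control and 275 and 264 CPM in TUBO (-8.56 ± 0.68, adjusted p = 0.000108 in edgeR). Chondrocyte markers called higher numbered 2 with DCC control replicate 1 or TUBO replicate 2 left out. Of 9 basal and myoepithelial markers 4 were higher, 2 were lower, and the higher numbered 1 with DCC control replicate 1 or TUBO replicate 2 left out and 2 with TUBO replicate 1 or the high-background pair left out. The 14 luminal markers, mostly genes given above, were lower in 11 and summed to 13.3 and 7.09 CPM in DCC control against 5817 and 6293 CPM in TUBO. Pan-leukocyte markers were higher in 6 of 9 and lower in 3, but summed to 73.0 and 64.2 CPM in DCC control against 687 and 626 CPM in TUBO. Only 1 of the 6 higher reached 10 CPM on average in DCC control, while all 3 lower reached it in TUBO. Schwann and neural markers were higher in 3 of 9 and lower in 2, summing to 55.6 and 57.9 CPM against 1197 and 1275 CPM. Sox10, given above as a factor of mammary epithelial cells too, made up most of the TUBO sum. Of 10 adipocyte markers 9 were tested, with 3 higher and 6 not called, the lipid carrier Fabp4 at 31.3 and 36.2 CPM against no count (at least 309.7-fold higher, adjusted p = 0.00424). Of 9 endothelial markers tested 2 were higher, a share near that over all genes. They numbered 5 in DESeq2 and none without DCC control replicate 1, TUBO replicate 2 or the high-background pair, and the markers' sum was 16.6 and 5.82 CPM in DCC control. Smooth muscle and pericyte markers were higher in 4 of 12, among them Acta2, smooth muscle actin, at 23.2 and 35.6 CPM against no count (at least 270.3-fold higher, adjusted p = 1.86e-06), and lower in 2, or in 1 with DCC control replicate 1, TUBO replicate 1 or the high-background pair left out. The main edgeR fit called no marker of neutrophils and mast cells (4 tested), T and NK cells (3) or B and plasma cells (1). Nor did it call any of erythroid cells and megakaryocytes (4) or skeletal muscle (3). An unadjusted p under 0.05 was reached by 1 gene each of the B cell, erythroid and muscle lists (Pax5, Itga2b and Des) and by none of the other lists. DESeq2 called 1 marker of B cells, 1 of skeletal muscle and 2 of the erythroid list. The edgeR fit of only the 4 libraries of the comparison called all 3 tested skeletal muscle markers higher. It also called 1 marker each of the B cell, erythroid, and neutrophil and mast cell lists higher. With no filter edgeR called 1 erythroid marker higher. Both groups lacked reads on the Y-linked genes Ddx3y, Kdm5d, Uty and Eif2s3y. Xist, the RNA that silences 1 X chromosome in female cells, had 2575 and 2625 CPM in DCC control and 1.07 and 3.58 CPM in TUBO (10.14 ± 0.59, adjusted p = 4.08e-06).

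Transcripts of glycolysis and of the hypoxia response were lower in DCC control. Of 19 tested 17 were lower, 1 higher and 1 not called, beside 19.9% of all genes, with a median of -1.83. In edgeR's test against a 2-fold change 10 were lower and 0 higher. The 17 lower glycolysis and hypoxia genes numbered 11 without the high-background pair. Egln3, a prolyl hydroxylase induced by hypoxia-inducible factor (chromosome 12, 54178981 to 54203860), had 4.75 and 2.89 CPM in DCC control and 811 and 719.6 CPM in TUBO (-7.67 ± 0.30, adjusted p = 3.66e-08 in edgeR). Car9, a carbonic anhydrase of hypoxic tumours, had 0.243 and 0.198 against 11.3 and 11.9 CPM (-5.70 ± 0.75, adjusted p = 0.000159). Among enzymes of the pathway hexokinase 1 (Hk1) had 56.7 and 69.8 against 598 and 526 CPM (-3.15 ± 0.19, adjusted p = 6.78e-07). The other tested enzymes of glycolysis and the glucose transporter Slc2a1 were lower by less, between -0.58 for Ldha and -2.53 for Pfkp on the log2 scale. A further 1 enzyme of the list had too few counts to be tested. Ndrg1, a stress-induced gene, was the 1 higher member (192 and 209.9 against 101 and 99.3 CPM, 1.01 ± 0.25, adjusted p = 0.00848). Its call was lost without TUBO replicate 2 (adjusted p = 0.0627) and in edgeR's test against a 2-fold change (0.50).

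Lipid synthesis leaned the same way, with 12 of 20 genes of sterol and fatty acid synthesis lower, 2 higher and 6 not called (median -1.40), and 1 higher with any 1 of the 4 libraries or the high-background pair left out. Scd1, the desaturase that makes oleic acid, had 92.2 and 119.5 CPM in DCC control and 1343 and 1317 CPM in TUBO (-3.65 ± 0.33, adjusted p = 2.2e-05 in edgeR). Dhcr7, which makes cholesterol in its last step, had 9.31 and 11.4 against 105 and 104 CPM (-3.33 ± 0.17, adjusted p = 1.49e-07), and the regulator Srebf1 51.3 and 73.4 against 480.1 and 513 CPM (-2.99 ± 0.20, adjusted p = 1.33e-06). The elongase Elovl6 was higher, with 49.2 and 48 against 22.9 and 19.1 CPM (1.21 ± 0.19, adjusted p = 0.000439, not called against a 2-fold change with adjusted p = 0.167). In that test 7 genes of the list were lower and 0 higher.

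Among 22 replication and G1/S genes 15 were lower in DCC control, 1 higher and 6 not called (median -1.02). In edgeR's test against a 2-fold change 4 were lower and 0 higher. The 1 higher gene, E2f1, a transcription factor that drives S phase, had 6.81 and 15.3 against 4.52 and 4.31 CPM (1.33 ± 0.42, adjusted p = 0.0267), and it was not called when DCC control replicate 2 was omitted (adjusted p = 0.292) or either TUBO library was (0.0863 and 0.13). Rrm2, a subunit of ribonucleotide reductase, had 9.8 and 9.54 CPM in DCC control and 40.2 and 31.7 CPM in TUBO (-1.89 ± 0.18, adjusted p = 1.33e-05 in edgeR), and the helicase subunit Mcm5 7.61 and 6.89 against 34.2 and 22 CPM (-1.96 ± 0.25, adjusted p = 0.000122). Of 22 genes of G2/M and mitosis 8 were lower, none higher and 14 not called (median -0.60). All called members were thus lower, 36.4% of the list, beside 19.9% of all genes called lower. The 8 lower numbered 14 with no filter, 11 with only the 4 libraries of the comparison and 1 in edgeR's test against a 2-fold change. The called share of the mitotic list, 36.4%, lies below the 42.0% over all genes, and the 8 lower numbered 4 without the high-background pair. Ccnb1, cyclin B1, had 6.63 and 9.54 against 20.1 and 26.6 CPM (-1.52 ± 0.26, adjusted p = 0.000911). Mki67, the proliferation marker Ki-67, was not called, with 209.9 and 313 CPM in DCC control and 389 and 300.1 CPM in TUBO (-0.40 ± 0.33, adjusted p = 0.347), and 1 DCC control library lay within the range of TUBO.

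Regulators of the G1 phase took different sides. Ccnd1, cyclin D1, had 343 and 404 CPM in DCC control and 1490.1 and 1380 CPM in TUBO (-1.94 ± 0.20, adjusted p = 2.86e-05 in edgeR), while Ccnd2, cyclin D2, had 652 and 719 against 101 and 88 CPM (2.86 ± 0.17, adjusted p = 4.51e-07). The groups did not overlap in either gene, which the rule for naming them required. Cdkn2a, the locus of the tumour suppressors p16 and Arf (chromosome 4, 89274471 to 89294653), had 21.9 and 15 CPM in DCC control and no count in TUBO (at least 169-fold higher, adjusted p = 5.03e-07). Cdkn1a, which encodes p21, was not called (186 and 174 against 191 and 207 CPM, -0.14 ± 0.14, adjusted p = 0.431). Over the list of CDK inhibitors and cyclins 6 of 16 were higher, 3 lower and 7 not called, a called share of 56.25% beside 42.0% over all genes. Of 16 p53 targets 6 were higher, 3 lower and 7 not called (median 0.30), the same called share of 56.25%, with Sesn1, a stress sensor, at 19.9 and 21.1 against 5.1 and 4.23 CPM (2.13 ± 0.35, adjusted p = 0.000703). The 3 lower CDK inhibitors and cyclins numbered 1 with either TUBO library or the high-background pair left out, and the 3 lower p53 targets 1 with DCC control replicate 1, TUBO replicate 1 or the pair left out. Of 14 dormancy regulators 5 were higher, beside 22.1% of all genes, and 4 lower, beside 19.9%, or 2 lower without DCC control replicate 2. Nr2f1, an orphan receptor tied to tumour cell dormancy, had 94.1 and 99.3 CPM in DCC control and 3.65 and 3.96 CPM in TUBO (4.66 ± 0.21, adjusted p = 8.13e-08), and the receptor tyrosine kinase Axl 109 and 119 against 0.414 and 0.496 CPM (7.96 ± 0.72, adjusted p = 0.000213). Bhlhe40, a helix-loop-helix repressor, was lower, with 109 and 108 CPM in DCC control and 894 and 821 CPM in TUBO (-2.98 ± 0.50, adjusted p = 0.00349), and was not called with DCC control replicate 2 omitted (adjusted p = 0.0667).

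**Figure D5:**
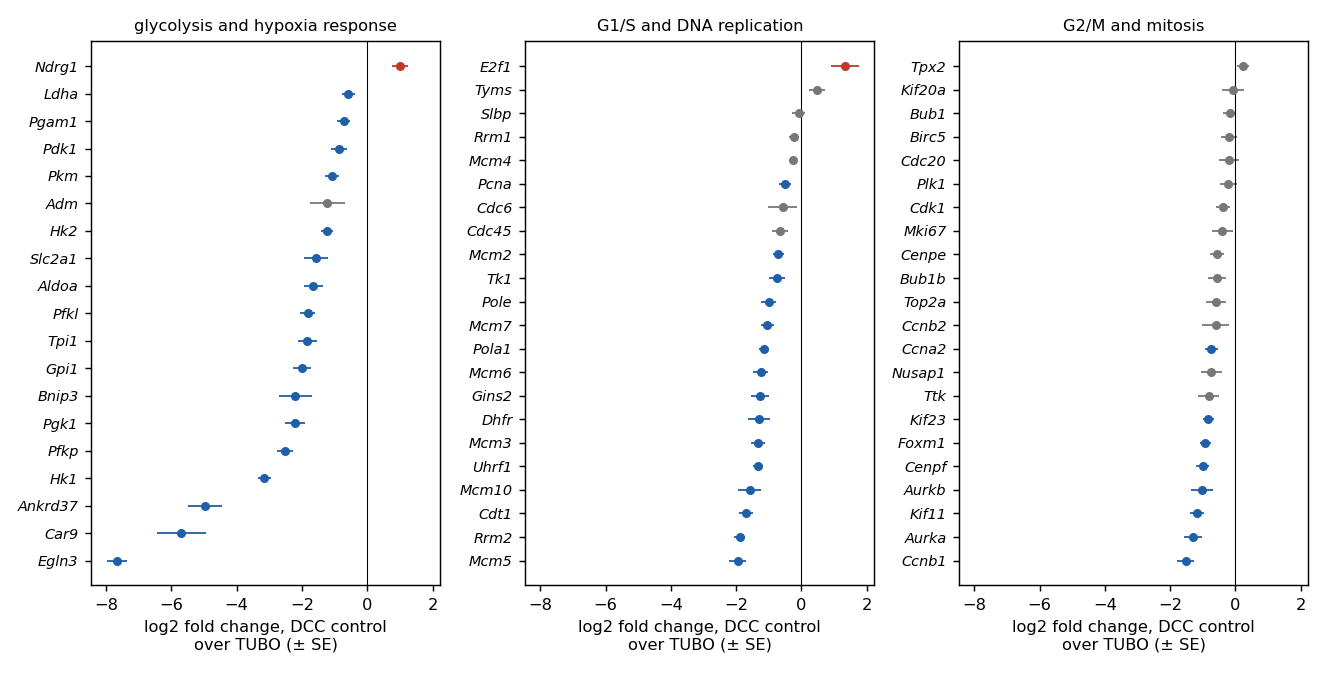
Log2 fold change of DCC control over TUBO with its standard error (horizontal) for each tested gene of glycolysis and hypoxia (left), G1/S and DNA replication (middle) and G2/M and mitosis (right), blue where called lower, red where called higher and grey where not called. Most glycolysis genes lie below -1, and most mitotic genes lie between -1 and 0.

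Immune genes at rest were read because the series also asks about the CD4 Th1 response. Of 20 genes of the interferon response 6 were higher, 3 lower and 11 not called (median 0.36), a called share near the 42.0% over all genes. Ifngr1, the ligand-binding chain of the interferon-gamma receptor, was not called (26.7 and 33.4 against 26.1 and 23 CPM, 0.29 ± 0.21, adjusted p = 0.273 in edgeR). Nlrc5, a coactivator of MHC class I genes, had 20.6 and 25.3 CPM in DCC control and 0.448 and 0.305 CPM in TUBO (5.90 ± 0.32, adjusted p = 2.89e-07). The 3 lower interferon genes numbered 1 with DCC control replicate 1, TUBO replicate 1 or the high-background pair left out. Of 15 genes of MHC class I presentation 2 were higher, 4 lower and 9 not called, and the higher numbered 1 with DCC control replicate 1, either TUBO library or the high-background pair left out, 4 with upper quartile factors and 5 in DESeq2. The called share of the MHC class I list was 40.0%, near the 42.0% over all genes. The immunoproteasome subunit Psmb8 had 1.76 and 2.93 against 47.6 and 56.6 CPM (-4.44 ± 0.29, adjusted p = 1.05e-06), and the class Ib gene H2-T23 6.15 and 4.99 against 65.6 and 74.1 CPM (-3.66 ± 0.38, adjusted p = 0.000146). B2m, the light chain of MHC class I, was higher, with 1377 and 1458 against 529 and 583 CPM (1.35 ± 0.25, adjusted p = 0.00142), though not against a 2-fold change (adjusted p = 0.114). Cd274, which encodes PD-L1, had 43.5 and 13.4 CPM in DCC control and 5.79 and 23.5 CPM in TUBO and was not called (0.95 ± 1.17, adjusted p = 0.54). With no filter on low counts Cd274 was called (adjusted p = 3.12e-05), and without DCC control replicate 1 its log2 fold change was -0.13 (adjusted p = 0.982). Of 23 chemokines and inflammatory cytokines 5 were higher, 6 lower and 12 not called, the chemokine Cxcl14 with 166 and 184 against 0.241 and 0 CPM (10.38 ± 0.75, adjusted p = 5.33e-05) and Csf3, the granulocyte growth factor, with 0.548 and 0 against 38.5 and 43.9 CPM (-7.48 ± 0.80, adjusted p = 0.000535). The called share of that list was 47.8%, beside 42.0% over all genes. The 6 lower chemokines and cytokines numbered 3 without DCC control replicate 2 and 3 without TUBO replicate 1.

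Stress of the endoplasmic reticulum gave 4 higher, 1 lower and 11 not called of 16 genes, a called share of 31.2% against 42.0% over all genes, and 7 higher with upper quartile factors and in DESeq2. Creb3l1, a membrane-bound factor that drives collagen secretion in osteoblasts, had 354 and 404 CPM in DCC control and 3.03 and 0.915 CPM in TUBO (7.56 ± 0.51, adjusted p = 2.47e-05 in edgeR). Ddit3, the stress factor CHOP, had 367 and 330.2 against 60.5 and 73.4 CPM (2.38 ± 0.17, adjusted p = 2.24e-06), and Xbp1 was lower with 89.6 and 89.9 against 304 and 322 CPM (-1.80 ± 0.21, adjusted p = 6.38e-05).

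Among the 10 largest increases over all genes, most had no count in TUBO, and those that follow are of that kind. Rcn3, a calcium-binding protein of the secretory pathway, had 265 and 261 CPM in DCC control (at least 2415-fold higher, adjusted p = 0.000308), and the microtubule linker Clip3 235 and 230.3 CPM (at least 2138-fold higher, adjusted p = 0.00027). Tpm2, a tropomyosin, had 169 and 180.0 CPM (at least 1603-fold higher), Slit2, an axon guidance ligand, 146 and 168 CPM (at least 1440.1-fold higher) and Kctd12 167 and 181 CPM (at least 1596-fold higher). These folds are lower bounds against a floor of 3 counts in each TUBO library, which stood for 0.103 and 0.114 CPM.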

How the data were processed

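RNA-seq read counts per gene were compared between 2 DCC control and 2 TUBO libraries. The authors deposited raw counts for 8 libraries of 4 groups, and the reads were aligned with TopHat and counted with HTSeq 0.6.1 on mm10, per the submitters' processing notes. Per the labels' protocols RNA came from RNeasy Mini columns and libraries from a Nugen Ovation kit for mouse. Annotation and strand setting: not given in the sources used here. Thus overlapping and antisense genes cannot be told apart. The table has 23478 gene rows, 27 with date-like names and 2 repeated, and 5 closing lines that name no gene. These lines held 63.7% and 45.1% of reads in DCC control replicates 1 and 2 and 35.2% and 39.7% in TUBO, and stayed out of library sizes and tests.

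Counts were tested with edgeR 4.0.16 (R 4.3.3, limma 3.58.1) in a quasi-likelihood model of all 4 groups with TMM factors, filterByExpr at a minimum count of 10 and Benjamini-Hochberg adjustment over the 17069 genes tested. The common biological coefficient of variation was 0.416 and 4 residual degrees of freedom were left. CPM was computed from the deposited counts. For a gene at 0 in both libraries of a group the fold is a bound against 3 counts per library, equal to 0.183 and 0.119 CPM in DCC control and 0.103 and 0.114 CPM in TUBO. With 1 to 3 counts in a group an exact 95% interval of the ratio is given. Intervals and floors cover counting error only. With 2 libraries per group no permutation test could reach the threshold. Replicates of both groups were compared by chi-square over genes, which per degree of freedom gave 18.4 and 34.9, above sampling noise, so none was merged. In the groups outside the comparison that share the fit it was 169 for interferon-treated DCC and 19.0 for early lesion.

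Members, the 32 programme lists and the 17 cell type lists were chosen with earlier results of these data known. Of 806 list entries, 9 were found under an older symbol and 3 were not in the table. Named genes were called genes with at least 10 CPM on average in the higher group and no overlap between libraries. They were the 10 largest changes in each direction, up to 4 members per list in the direction most took with 1 in the opposite one, and a panel taken whether called or not. The rule gave 204 genes. Bglap, Cldn4, Cldn7, Crb3, F11r, Fn1, Itga6, Itgb4, Krt5, Krt14, Ldha, Lsr, Ocln, Pfkp, Pkp2, Slc2a1, Snai3, Tjp3 and Twist1 are outside it and were chosen after their values were seen, as were the other genes named with a motif or in the closing section. Positions are from GENCODE M21 (GRCm38) and promoters from RefSeq (GRCm38.p6).

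Alternatives tried were upper quartile and RLE factors, testing without a filter, at least 50 counts in 2 libraries, a replicate block, a test against a 2-fold change, DESeq2 1.42.0, only the 4 libraries of the comparison, and each library left out. Chosen after seeing the data were omitting DCC control replicate 1 with early lesion replicate 2, and requiring at least 5 CPM in both libraries of a group. On data simulated for DCC control against TUBO with 15697 genes, the test called 41% of genes changed 2-fold, 77% of those changed 4-fold and 11 of 15497 unchanged genes. Only 100 genes were changed 2-fold and 100 were changed 4-fold, all above a minimum level. Means were taken over all 8 libraries and spreads from the same model. In the real comparison 42.0% of genes were called, so these rates do not carry over to it.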

Additional observations from a re-analysis of the deposited data

Results flagged for a closer look

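Reads outside annotated genes, which enter no comparison, made up 49.2% of the reads counted in DCC control replicate 1 and 31.0% in DCC control replicate 2. They stood out because both shares lie above those of the TUBO libraries, at 19.2% and 18.3%. Their part in the results was not tested beyond the counts given without DCC control replicate 1.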

How the results depend on the processing

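Of the 195 named genes called, 160 were called in each of 14 settings, and none changed direction in any of them. Against the 3776 higher and 3396 lower genes, edgeR's test against a 2-fold change called 1990 and 1544. In that test the 6 higher and 3 lower interferon genes numbered 2 and 0. Leaving out 1 of the 4 libraries gave 2790 to 3168 higher and 2628 to 2813 lower genes. Upper quartile factors moved the median of all genes by 0.11, to 0.48, with 4194 higher and 3065 lower, so the list medians above shift by as much. DESeq2 called 4894 and 3416 with 661 genes left without an adjusted p. A fit of only the 4 libraries of the comparison called 4895 and 3577. The labels' replicate numbers are not shown to pair the samples, since the correlation of replicate differences between DCC control and TUBO was -0.05, and with the replicate block 3508 genes were higher and 3335 lower and 4 named genes were not called. Cd274, not called, ranged from -0.13 to 2.28 with 1 library left out. It turned to a log2 fold change of -0.13 without DCC control replicate 1 (adjusted p = 0.982) and to -0.13 without that library and early lesion replicate 2 (adjusted p = 0.932). The cause was not tested. With 2 libraries per group and shallower DCC control libraries, levels under about 1 CPM in DCC control replicate 1 are not separable from its background.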

Other observations

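Some of the most abundant transcripts differed strongly. Trf, the iron carrier transferrin, had 4.56 and 2.49 CPM in DCC control and 10263 and 9597 CPM in TUBO. Spp1, the bone matrix protein osteopontin, had 13472 and 18826 CPM against 3338 and 3805 CPM. Gapdh, often used as a reference gene, had 1103 and 1261 CPM in DCC control and 6342 and 7250 CPM in TUBO.

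The called genes were uneven over the chromosomes. Among 7681 genes with at least 10 CPM in both groups 20.3% were higher and 27.6% lower in DCC control. On chromosome 4 these shares were 42.2% and 12.03% of 424 genes, and on chromosome 16 they were 38.7% and 15.5% of 251 genes. Chromosome 19 showed the opposite, with 8.33% higher and 43.1% lower of 276 genes, and chromosome 11 had 10.4% higher and 39.2% lower of 613 genes. On chromosome 4 next to Cdkn2a, Cdkn2b, which encodes the CDK inhibitor p15, had 7.36 and 4.47 CPM in DCC control and no count in TUBO, at least 54.3-fold higher. Both genes were present in the early lesion libraries, Cdkn2a at 16.9 and 16.1 CPM and Cdkn2b at 15.9 and 12.5 CPM. The neighbour Mtap, an enzyme of methionine salvage, had 87.3 and 98.2 CPM in DCC control and 25.6 and 23.03 CPM in TUBO (log2 fold change 1.93 ± 0.16).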
